A study of Mus musculus with 2 samples.

Results

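The genes described are 5 gamma-delta T cell receptor genes, Trdc, Tcrg-C1, Tcrg-C2, Trdv4 and Trgv2, among 32285 genes counted in leukocytes of mouse tumors. They were chosen by name with their UMI counts in these libraries already known, so their levels are given as a description, with no test. The ketogenic diet group was 1 library made from CD45+ cells of 5 pooled tumors from mice that ate ketogenic food from day 4 after the tumor cells were injected. The normal diet group was 1 library made in the same way from 5 pooled mice left on normal food. In both groups the mice were female C57BL/6J, 6 to 8 weeks old, and carried MC38 cells, a mouse colon adenocarcinoma line, injected under the skin in matrigel. Tumors were taken on day 14, dead cells were removed, CD45+ cells were enriched with magnetic beads, and 3 prime droplet libraries were made. With 1 library per diet there is no spread between mice or libraries. Every interval below is a 95% interval that covers counting error only, exact Poisson for levels, exact conditional for ratios and exact Clopper-Pearson for shares.

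A gamma-delta T cell carries a receptor of a gamma chain and a delta chain in place of the alpha and beta chains of most T cells, and its receptor is held at the surface with the CD3 proteins. Each chain is made from a variable segment joined to a constant gene. Trdc is the constant gene of the delta chain, and Trdv4 is one of its variable segments. Tcrg-C1 and Tcrg-C2 are constant genes of gamma chains, each served by variable segments that lie near it, and Trgv2 is a gamma variable segment. In mice, gamma-delta T cells are known as an early source of the cytokine Il17a in skin, mucosa and tumors, and other gamma-delta T cells make interferon gamma. Because the libraries read the 3 prime end of transcripts, a variable segment at the 5 prime end of a joined transcript is covered less well than a constant gene.

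In the GENCODE annotation of build GRCm38, the build named in the submitters' processing notes, Trdc spans chr14:54142851-54148868 and Trdv4 chr14:54074905-54075515, both on the plus strand. Tcrg-C1 spans chr13:19214103-19217024 on the plus strand, Tcrg-C2 chr13:19304649-19307551 on the minus strand, and Trgv2 chr13:19336573-19337167 on the minus strand. Trdc, Tcrg-C1 and Tcrg-C2 are annotated as T cell receptor constant genes, and Trdv4 and Trgv2 as variable genes. The gamma constant genes are close copies, which matters for how far their counts can be told apart. The coding parts of Tcrg-C1 and Tcrg-C2 were 97.4% identical over 500 aligned bases, those of Tcrg-C1 and Tcrg-C3 96.8%, and those of Tcrg-C1 and Tcrg-C4 77.3%. The last 300 bases of their transcripts, the part a 3 prime library reads, were 93.6% identical between Tcrg-C1 and Tcrg-C2 and 55.1% between Tcrg-C1 and Tcrg-C4. The stretch below is coding bases 101 to 220 of Tcrg-C1 and the bases aligned with them. It is shown as an example of how alike the copies are, and lies outside the last 300 bases of the transcripts. Its differences are thus not those in the part a 3 prime library reads. Capitals mark bases that differ from Tcrg-C1.
Tcrg-C1 (chr13:19214203-19214322, plus strand): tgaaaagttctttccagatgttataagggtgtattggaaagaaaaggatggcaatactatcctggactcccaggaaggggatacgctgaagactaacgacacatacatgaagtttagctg
Tcrg-C2 (chr13:19307332-19307451, minus strand): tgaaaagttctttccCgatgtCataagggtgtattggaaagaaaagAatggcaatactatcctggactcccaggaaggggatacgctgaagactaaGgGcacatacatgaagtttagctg
Tcrg-C3 (chr13:19260985-19261104, plus strand): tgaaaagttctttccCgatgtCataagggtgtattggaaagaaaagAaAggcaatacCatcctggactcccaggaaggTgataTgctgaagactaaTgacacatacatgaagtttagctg
Tcrg-C4 (chr13:19344658-19344777, plus strand): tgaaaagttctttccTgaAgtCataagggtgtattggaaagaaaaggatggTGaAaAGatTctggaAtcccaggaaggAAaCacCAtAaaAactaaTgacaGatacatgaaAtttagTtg
Over these 120 bases Tcrg-C2 differs from Tcrg-C1 at 5 positions, Tcrg-C3 at 8 and Tcrg-C4 at 21. How reads that match both Tcrg-C1 and Tcrg-C2 were counted is not given in the sources used here, so counts of these genes are uncertain to that extent.

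Cell barcodes were those with at least 500 UMIs, which count single captured molecules, and at least 300 genes. There were 5944 in the ketogenic diet library and 5671 in the normal diet library, with medians of 3922 and 4200 UMIs. Barcodes were sorted into classes by marker genes that included neither a gamma-delta receptor gene nor Il17a. Mixed barcodes, which passed the gates of more than 1 lineage, made up 21.1% in the ketogenic diet library and 23.7% in the normal diet library. Their median depths were 10198 and 8609 UMIs, against 3320 and 3621 UMIs in the other barcodes of the ketogenic and normal diet libraries. No doublet caller was run, so a mixed barcode may be 1 cell or several. The libraries shared 7 cell barcodes, and 0 of these had a UMI of a described gene in both.

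All 5 genes were higher over all cell barcodes of the ketogenic diet library than over those of the normal diet library. Trdc, the delta constant gene, had 1882 UMIs in 719 cell barcodes on ketogenic diet and 850 UMIs in 453 on normal diet, which is 47.3 and 23.9 counts-per-million units (CPM, the UMIs of the gene scaled to a common total), a ratio of 1.98 (1.83 to 2.15). Tcrg-C1 had 486 UMIs in 211 barcodes on ketogenic diet and 149 UMIs in 103 on normal diet, a ratio of 2.92 (2.43 to 3.54). Tcrg-C2 had 724 UMIs in 360 barcodes on ketogenic diet and 429 UMIs in 225 on normal diet, a ratio of 1.51 (1.34 to 1.71). The constant genes thus differed in their ratios, with the Tcrg-C1 interval above those of Trdc and Tcrg-C2. Trdv4 had 296 UMIs on ketogenic diet and 94 on normal diet, a ratio of 2.82 (2.23 to 3.60), and 220 of its 250 barcodes on ketogenic diet and 87 of 90 on normal diet held a single UMI. Trgv2 had 226 UMIs on ketogenic diet and 102 on normal diet, a ratio of 1.99 (1.56 to 2.53). Tcrg-C1 and Trdv4 passed a 2-fold difference, 2 of 5 genes, where 1.78% of all genes with at least 20 UMIs over both libraries were at least 2-fold higher on ketogenic diet and 3.32% at least 2-fold lower. The genes were chosen with these ratios known, so nothing is read from that count. With each cell thinned to 1000 UMIs, which leaves out 312 and 313 shallower barcodes of the ketogenic and normal diet libraries, the ratio was 3.33 (2.69 to 4.15) for Trdc and 5.07 (3.05 to 8.92) for Tcrg-C1. Thinned, the ratio was 1.71 (0.879 to 3.46) for Trgv2, an interval that includes 1. The mean of per-cell CPM gave 4.63 for Tcrg-C1.

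Il17a, the cytokine, differed far more than any receptor gene. It had 755 UMIs in 103 cell barcodes of the ketogenic diet library and 5 UMIs in 3 barcodes of the normal diet library. With every barcode that held an Il17a UMI left out, a setting chosen after the data were seen, the ratio of ketogenic to normal diet was 1.41 (1.30 to 1.54) for Trdc and 1.58 (1.28 to 1.96) for Tcrg-C1. It was 1.36 (1.20 to 1.54) for Tcrg-C2, 2.33 (1.83 to 3) for Trdv4 and 1.89 (1.48 to 2.42) for Trgv2. Without these barcodes the ratios of Trdc and Tcrg-C1 were nearer to 1, and all 5 intervals stayed above 1. Over all cell barcodes, those with Il17a included, Cd3e, a CD3 gene, had a ratio of 1.41 (1.35 to 1.48) and Trac, the alpha constant gene, 1.18 (1.12 to 1.23).

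The marker-gated classes divided the 5 genes into those held mainly by T cells and those shared with NK cells. Among barcodes of a single lineage, CD3-gated T cells, with at least 2 UMIs of Cd3d, Cd3e and Cd3g, held 98.2% of Tcrg-C1 UMIs on ketogenic diet and 95.4% on normal diet. They held 97.6% and 98.4% of Tcrg-C2 UMIs and 96.6% and 96.5% of Trgv2 UMIs on ketogenic and normal diet. Trdc was divided, with 62.3% (59.3 to 65.3) of its UMIs in CD3-gated T cells on ketogenic diet and 44.4% (39.9 to 48.9) on normal diet. Trdv4 had 30.7% (24.5 to 37.3) there on ketogenic diet and 14.5% (7.17 to 25) on normal diet. CD3-gated T cells without a UMI of Cd4, Cd8a or Cd8b1 held 77.5% (71.5 to 82.8) of these Tcrg-C1 UMIs on ketogenic diet and 66.2% (53.4 to 77.4) on normal diet. They held less of the other gamma genes, 39.6% (34.3 to 45.0) and 30.2% (23.6 to 37.5) of Tcrg-C2 UMIs and 40.9% (30.5 to 51.9) and 31.6% (19.9 to 45.2) of Trgv2 UMIs on ketogenic and normal diet. The 5 genes thus marked such T cells only in part, since Trdc and Trdv4 were in large part outside CD3-gated cells and much of Tcrg-C2 and Trgv2 was in CD3-gated cells with Cd4 or Cd8.

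**Figure D1:**
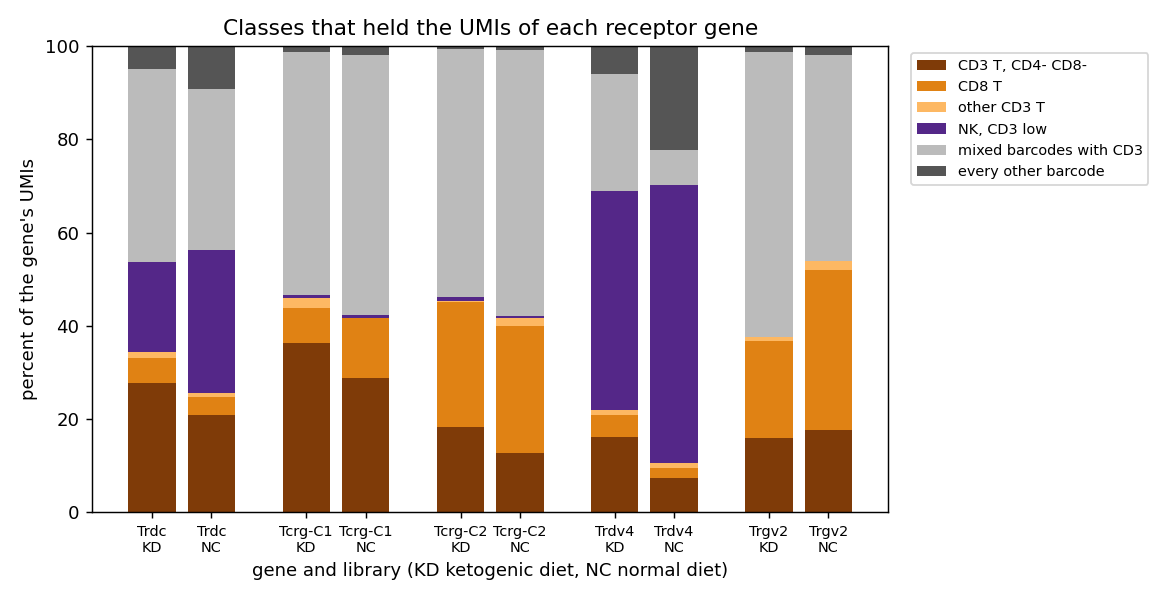
Percent of each gene's UMIs (vertical axis) by the class of barcode that held them, with ketogenic diet (KD) left of normal diet (NC) for each gene. NK cells held 47.0% of Trdv4 UMIs on ketogenic diet and 59.6% on normal diet, and at most 0.829% of Tcrg-C1, Tcrg-C2 or Trgv2 UMIs in either library.

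T cells with CD3, no UMI of Cd4, Cd8a or Cd8b1 and fewer than 2 UMIs of NK receptor genes numbered 188 on ketogenic diet and 105 on normal diet. Among classes of at least 30 cells they had the highest level of all 5 genes on ketogenic diet, and of all but Trdv4 on normal diet. In this class Trdc had 326 UMIs on ketogenic diet and 84 on normal diet, which is 728 CPM (651 to 811) and 317 CPM (253 to 392), a ratio of 2.30 (1.80 to 2.95). Tcrg-C1 had 148 UMIs on ketogenic diet and 21 on normal diet, or 330 and 79.2 CPM, a ratio of 4.17 (2.63 to 6.93). Tcrg-C2 had 76 UMIs on ketogenic diet and 26 on normal diet, a ratio of 1.73 (1.09 to 2.81). Levels of Trdc, Tcrg-C1 and Tcrg-C2 were thus higher on ketogenic diet beyond counting error in this class. Trdv4 had 34 UMIs in 24 cells on ketogenic diet and 1 UMI in 1 cell on normal diet, a ratio of 20.1 with an interval from 3.37 to 817. Trgv2 had 23 UMIs on ketogenic diet and 10 on normal diet, a ratio of 1.36 (0.623 to 3.20), and Tcrg-C4, the remaining expressed gamma constant gene, 42 and 31 UMIs, a ratio of 0.801 (0.492 to 1.32), so neither interval excluded equal levels. The class held 230 Il17a UMIs on ketogenic diet and 4 on normal diet. With its cells that held Il17a left out, a setting chosen after the data were seen, the ratio was 0.965 (0.723 to 1.29) for Trdc, 1.92 (1.08 to 3.56) for Tcrg-C1 and 1.20 (0.724 to 2.02) for Tcrg-C2, so the Tcrg-C1 interval alone of these 3 stayed above 1. Its macrophage marker level was 58.0 CPM on ketogenic diet and 109 CPM on normal diet, against 7014 and 10343 CPM in the monocytes and macrophages of the ketogenic and normal diet libraries.

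T cells with CD3 and NK receptor genes but no Cd4 or Cd8 numbered 193 on ketogenic diet and 101 on normal diet, and the intervals of the diet ratio included 1 there for all 5 genes. Trdc had 158 CPM (137 to 182) on ketogenic diet and 130 CPM (105 to 159) on normal diet, a ratio of 1.22 (0.947 to 1.58). The ratio was 0.732 (0.404 to 1.34) for Tcrg-C1, 1.13 (0.711 to 1.83) for Tcrg-C2, 1.34 (0.484 to 4.26) for Trdv4 and 0.934 (0.359 to 2.60) for Trgv2. Without the cells that held Il17a the Tcrg-C1 ratio was 0.514 (0.263 to 0.995), and the other 4 intervals still included 1. Over both classes without Cd4 and Cd8 together, 2 of the 5 genes were at least 2-fold higher on ketogenic diet, where 1.66% of all genes tested were. Trdv4 was 1 of them, with 48 UMIs on ketogenic diet and 7 on normal diet, and reached the minimum of 20 UMIs only through the former.

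**Figure D2:**
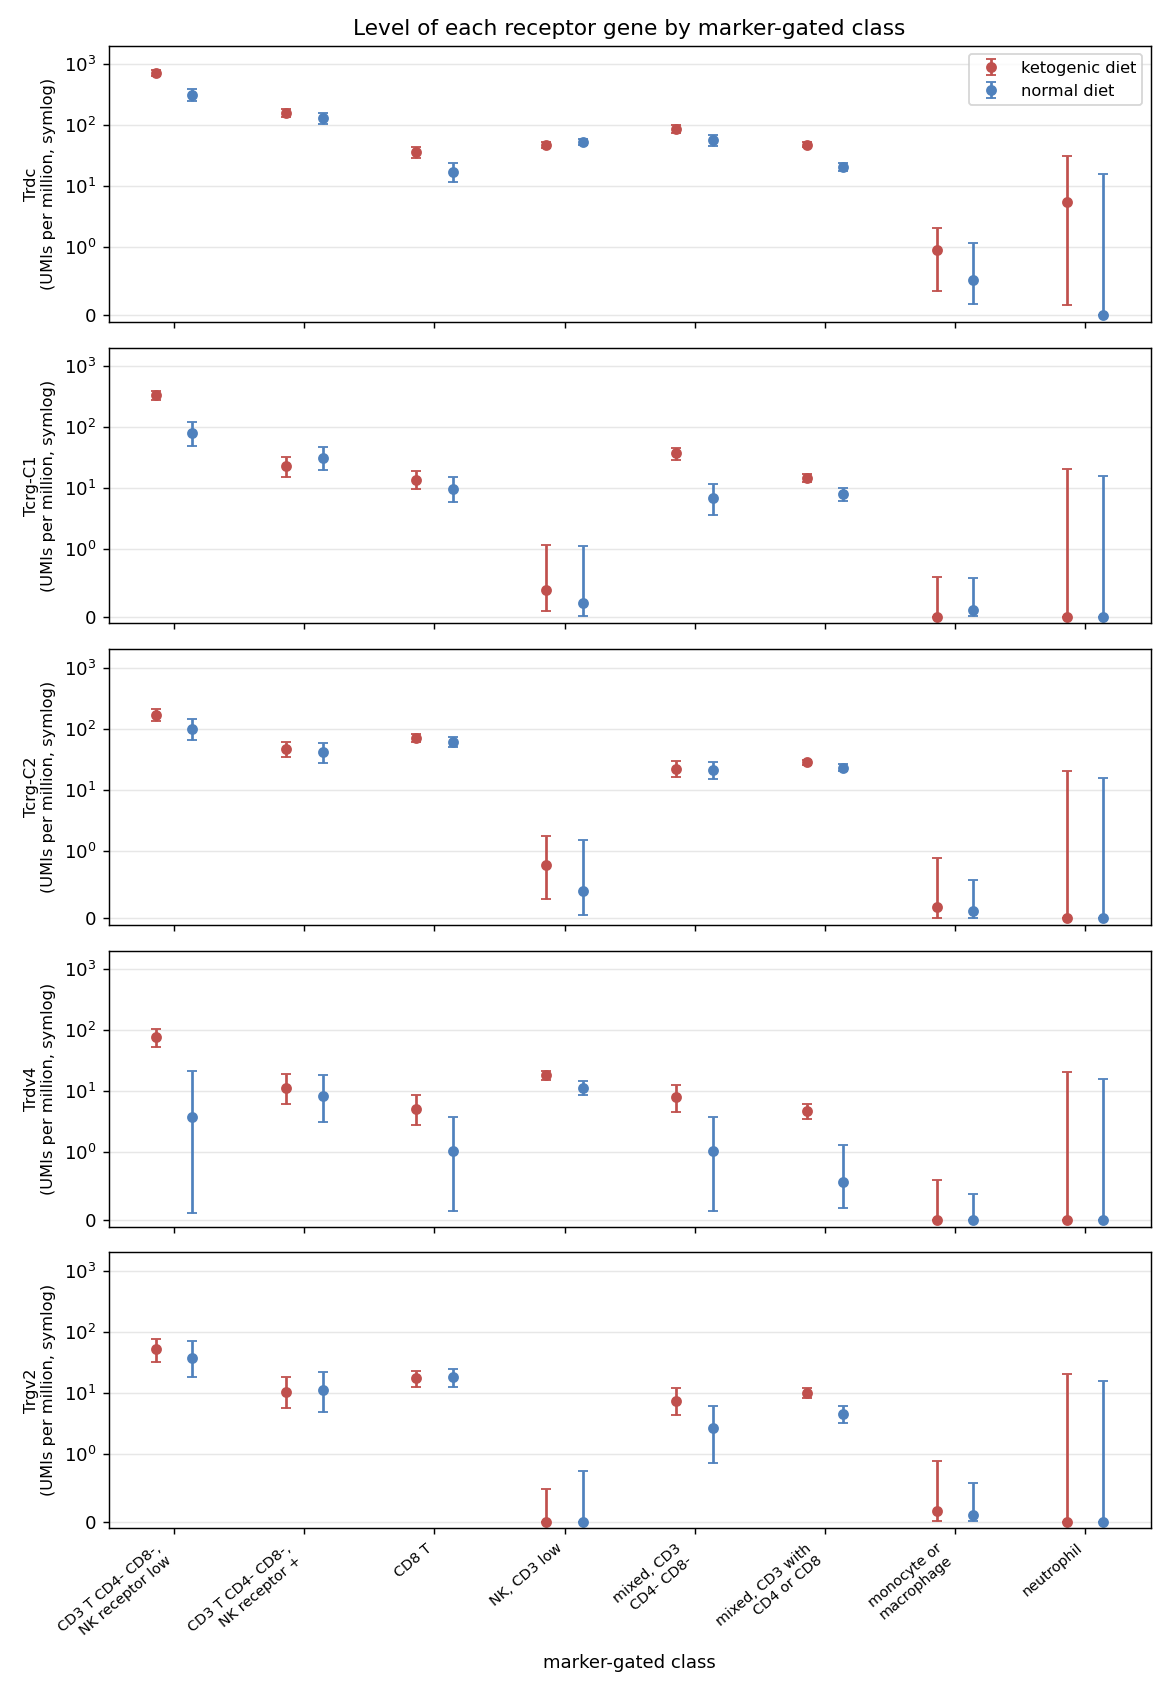
Level of each gene in CPM (vertical axis, linear below 1 and logarithmic above) in 8 classes, ketogenic diet left of normal diet, with exact Poisson intervals. Trdc and Trdv4 stand above the monocyte and macrophage level in NK cells, whereas Tcrg-C1, Tcrg-C2 and Trgv2 stay below 1 CPM there.

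NK cells, gated on at least 2 UMIs of Ncr1, Klrb1c, Klre1, Klra4, Klra8 and Klra9 with fewer than 2 CD3 UMIs, numbered 1594 on ketogenic diet and 889 on normal diet. They are lymphocytes that kill without a rearranged receptor. Trdc was found in 283 NK cells on ketogenic diet and 189 on normal diet, 17.8% (15.9 to 19.7) and 21.3% (18.6 to 24.1), at median depths of 3678 and 4482 UMIs. In monocytes and macrophages, which should lack the gene, Trdc was found in 0.236% of 1697 cells on ketogenic diet and 0.211% of 2370 on normal diet, at median depths of 3332 and 3606.5 UMIs. The Trdc level in NK cells was 47.8 CPM on ketogenic diet and 52.9 CPM on normal diet, a ratio of 0.905 (0.770 to 1.07), an interval that includes 1. Trdv4 was found in 8.09% of NK cells on ketogenic diet and 5.85% on normal diet, at 18.3 and 11.4 CPM, a ratio of 1.60 (1.17 to 2.23), and in 0 monocytes or macrophages of either library, 0% (0 to 0.217) on ketogenic diet and 0% (0 to 0.156) on normal diet. Of the 2 genes with enough UMIs for the comparison in NK cells, 0 were at least 2-fold higher on ketogenic diet, where 0.986% of all genes tested were. Tcrg-C1 had 3 UMIs in NK cells on ketogenic diet and 1 on normal diet, Tcrg-C2 6 and 2, and Trgv2 0 and 0. Tcrg-C4, in contrast, had 81 UMIs in NK cells on ketogenic diet and 55 on normal diet. After each cell was thinned to 1000 UMIs, Trdc was found in 5.33% of NK cells on ketogenic diet and 4.74% on normal diet, and Trdv4 in 2.34% and 1.39%.

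In NK cells Trdc was found at similar shares in cells with and without Trdv4. On ketogenic diet 20 of the 129 NK cells with Trdv4 had a Trdc UMI, 15.5% (9.73 to 22.9), against 18.0% of the NK cells without Trdv4. On normal diet 12 of 52 had one, 23.1% (12.5 to 36.8), against 21.1%. In CD3-gated T cells the co-detection was different, with Trdc in 35 of 47 cells with Trdv4 on ketogenic diet, 74.5% (59.7 to 86.1), and in 7 of 10 on normal diet, while 14.3% and 11.3% of the other CD3-gated cells of the ketogenic and normal diet libraries had Trdc. In NK cells the 3 CD3 genes together had 18.7 CPM on ketogenic diet and 13.2 CPM on normal diet, and Trac had 12.6 and 13.4 CPM.

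CD8 T cells, 427 on ketogenic diet and 346 on normal diet, held Tcrg-C2 and Trgv2. Tcrg-C2 was found in 80 of them on ketogenic diet and 55 on normal diet, 18.7% (15.1 to 22.8) and 15.9% (12.2 to 20.2), at 70.9 and 59.5 CPM and a ratio of 1.19 (0.942 to 1.51). Trgv2 was at 17.2 and 18.0 CPM on ketogenic and normal diet, a ratio of 0.957 (0.605 to 1.53). The diet ratios of both gamma genes had intervals that included 1 in CD8 T cells. Trdc was found in 28 CD8 T cells on ketogenic diet and 17 on normal diet, 6.56% and 4.91%, at 36.2 and 16.9 CPM, a ratio of 2.14 (1.43 to 3.28). Of the CD8 T cells on ketogenic diet, 6 held Il17a, and 0 on normal diet did. Without these 6 cells Trdc had 52 UMIs on ketogenic diet and 33 on normal diet, a ratio of 1.14 (0.723 to 1.82). Of the 6 cells, 5 held a UMI of Trdc or a Tcrg-C gene, so the difference in Trdc rested on at most 5 cells. Trac, which alpha-beta T cells use, was at 370 CPM in CD8 T cells on ketogenic diet and 411 CPM on normal diet. CD4 T cells of a single lineage were few, 29 on ketogenic diet and 22 on normal diet, and 1 Foxp3+ cell on ketogenic diet held all 16 Trdc and 20 Il17a UMIs of its class.

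The order of levels over the CD3-gated and NK classes of at least 30 cells was not the same for each gene. On ketogenic diet Trdc ran from the cells low in NK receptors to those with NK receptors, then to NK cells at 47.8 CPM (43.1 to 53.0) and CD8 T cells at 36.2 CPM (29.4 to 44.1), and the intervals of the last pair overlapped. On normal diet the order was the same, and the NK interval (46.6 to 59.7) lay above the CD8 T interval (11.7 to 23.8). Tcrg-C2 instead placed CD8 T cells ahead of the CD3-gated cells with NK receptors, at 70.9 CPM (61.3 to 81.6) and 45.8 CPM (34.7 to 59.4) on ketogenic diet, which did not overlap, and at 59.5 CPM (49.2 to 71.4) and 40.6 CPM (27.2 to 58.3) on normal diet, which did. Trgv2 had the same order of classes, with overlapping intervals between CD8 T cells and CD3-gated cells with NK receptors in both libraries. Tcrg-C1 placed the CD3-gated cells with NK receptors ahead of CD8 T cells, at 22.5 CPM (15.0 to 32.5) and 13.5 CPM (9.53 to 18.6) on ketogenic diet, which overlapped, and at 30.8 CPM (19.3 to 46.6) and 9.74 CPM (5.87 to 15.2) on normal diet, which did not. Trdv4 on ketogenic diet placed NK cells, at 18.3 CPM (15.4 to 21.6), ahead of CD3-gated cells with NK receptors, at 11.3 CPM (6.15 to 18.9), with overlapping intervals. Monocytes and macrophages were below 1 CPM for all 5 genes in both libraries.

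Mixed barcodes with CD3 held a large part of the counts. On ketogenic diet they held 41.2% of Trdc, 52.3% of Tcrg-C1, 53.3% of Tcrg-C2, 25% of Trdv4 and 61.1% of Trgv2 UMIs. On normal diet they held 34.6% of Trdc, 55.7% of Tcrg-C1, 56.9% of Tcrg-C2, 7.45% of Trdv4 and 44.1% of Trgv2 UMIs. The level of Trgv2 in them was 9.65 CPM (8.11 to 11.4) on ketogenic diet and 4.15 CPM (3.03 to 5.55) on normal diet. In CD3-gated T cells of 1 lineage it was 18.4 CPM (14.7 to 22.8) and 17.6 CPM (13.3 to 22.9), with overlapping intervals. Mixed barcodes are kept out of the comparisons by class and of the groups with and without Il17a. Their receptor UMIs cannot be assigned to 1 cell type. Outside cell barcodes, barcodes of at most 100 UMIs held 91 Trdc UMIs on ketogenic diet and 34 on normal diet, 35.0 and 20.9 CPM of the free RNA. These barcodes held 6.09% of all UMIs of the ketogenic diet library and 4.33% of the normal diet library.

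Il17a and the receptor genes met in the same cells. Of the CD3-gated T cells of 1 lineage on ketogenic diet, 48 held Il17a, and 45 of these had a UMI of Trdc or a Tcrg-C gene, 0.757% (0.553 to 1.01) of all cell barcodes. On normal diet 2 cells did, 0.0353% (0.00427 to 0.127) of cell barcodes. Receptor cells without Il17a numbered 242 on ketogenic diet and 174 on normal diet, 4.07% (3.58 to 4.61) and 3.07% (2.63 to 3.55) of cell barcodes. These numbers depend on the threshold, with 147 cells on ketogenic diet and 103 on normal diet that held at least 2 receptor UMIs, and 106 and 72 that held Trdc. Among the mixed barcodes with CD3, 41 held both Il17a and a receptor UMI on ketogenic diet and 0 on normal diet. In NK cells Il17a was found in 2 cells on ketogenic diet and 0 on normal diet, and in 1 monocyte or macrophage on ketogenic diet and 0 on normal diet. Of the 45 cells on ketogenic diet, 37 lacked Cd4 and Cd8 UMIs, 6 had a Cd8 UMI and 6 had at least 2 NK receptor UMIs. Of the 242 receptor cells without Il17a on ketogenic diet, 132 lacked Cd4 and Cd8 UMIs, 108 had a Cd8 UMI and 147 had at least 2 NK receptor UMIs, so the groups with and without Il17a differed in these genes too.

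The receptor genes of cells with Il17a differed from those of cells without it. Trdc was found in 43 of the 45 cells with Il17a on ketogenic diet, 95.6% (84.9 to 99.5), against 43.8% (37.5 to 50.3) of the 242 without. Tcrg-C1 was found in 41, 91.1% (78.8 to 97.5), against 22.3% (17.2 to 28.1), and Trdv4 in 22, 48.9% (33.7 to 64.2), against 7.02% (4.15 to 11). These shares were higher although the cells with Il17a were shallower, with a median of 2363 UMIs against 5616. Thinned to 1000 UMIs, Trdc was found in 75.6% of cells with Il17a and 21.2% of those without, Tcrg-C1 in 53.3% and 9.17%, and Trdv4 in 22.2% and 2.5%. Tcrg-C2 was found in 42.2% of cells with Il17a and 53.3% of those without, and, thinned, in 24.4% (12.9 to 39.5) and 21.7% (16.6 to 27.4), so its order depended on depth. Trgv2 was found in 8.89% and 22.3%, and, thinned, in 4.44% (0.543 to 15.1) and 6.25% (3.54 to 10.1), which overlap. Of the 2 cells with Il17a on normal diet, both held Tcrg-C1 and neither held Trdc, Tcrg-C2, Trdv4 or Trgv2.

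**Figure D3:**
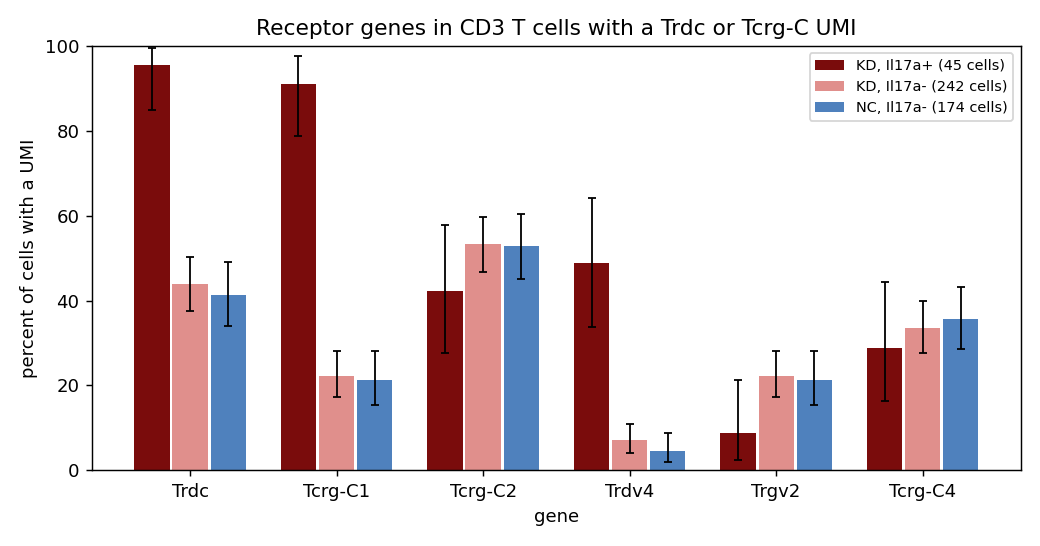
Percent of CD3-gated T cells with a Trdc or Tcrg-C UMI (vertical axis) in which each gene was found, for cells with Il17a on ketogenic diet, cells without it on ketogenic diet and cells without it on normal diet, unthinned, with exact Clopper-Pearson intervals. Trdc, Tcrg-C1 and Trdv4 stand apart in the cells with Il17a, while the cells without Il17a of both diets have overlapping intervals for every gene drawn.

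The gamma constant genes were counted in different proportions in cells with and without Il17a. In the 45 cells with Il17a on ketogenic diet, 129 of 188 gamma constant UMIs were Tcrg-C1, 68.6% (61.5 to 75.2), while 22.9% were Tcrg-C2 and 8.51% Tcrg-C4. In the 242 cells without Il17a on ketogenic diet, 18.9% (15.6 to 22.6) of 497 UMIs were Tcrg-C1, 57.3% Tcrg-C2 and 23.7% Tcrg-C4. In the 174 cells without Il17a on normal diet, 16.9% (13.1 to 21.2) of 344 UMIs were Tcrg-C1, 52.0% Tcrg-C2 and 31.1% Tcrg-C4. The Tcrg-C1 share of cells with Il17a lay above that of both groups without it, and those 2 groups overlapped. Among cells with at least 3 gamma constant UMIs, Tcrg-C1 was the most counted in 24 of 32 with Il17a, against 12 of 69 without it on ketogenic diet and 5 of 49 without it on normal diet. Tcrg-C2 was the most counted in 5 of the 32, 40 of the 69 and 25 of the 49. Both genes were found together in 18 of the 32, 16 of the 69 and 16 of the 49. A cell with both may have used both or may hold reads assigned to the wrong copy, and the part of the close similarity shown above in these counts was not tested. Tcrg-C3 had 0 UMIs in these cells of either library, a share of 0% (0 to 1.94) of the gamma constant UMIs of the cells with Il17a. Without Il17a, CD8 T cells held 190 Tcrg-C2 UMIs on ketogenic diet and 116 on normal diet, and 137 of the 242 cells held Trac. Without Cd4, Cd8 and Il17a, 132 cells on ketogenic diet had 66 Tcrg-C1, 95 Tcrg-C2 and 85 Tcrg-C4 UMIs. On normal diet 92 such cells had 39, 55 and 76, so Tcrg-C4 led there. The 37 cells with Il17a but no Cd4 or Cd8 on ketogenic diet had 110, 38 and 11.

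**Figure D4:**
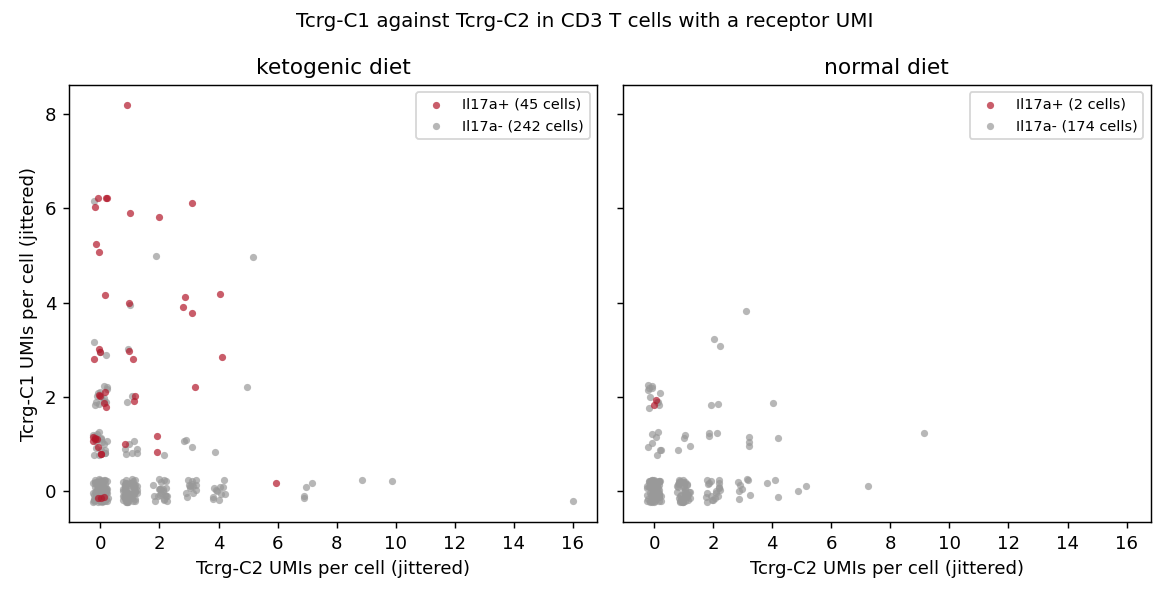
Tcrg-C1 UMIs (vertical axis) against Tcrg-C2 UMIs (horizontal axis) in each CD3-gated T cell with a receptor UMI, jittered, ketogenic diet left and normal diet right, with the 45 and 2 cells with Il17a in red and the 242 and 174 without it in grey. Cells with Il17a reach 8 Tcrg-C1 and 6 Tcrg-C2 UMIs, and cells without it on ketogenic diet reach 6 Tcrg-C1 and 16 Tcrg-C2 UMIs.

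Within cells that lacked Cd4 and Cd8 UMIs, the levels of Trdc, Tcrg-C1, Tcrg-C2 and Trdv4 were also higher with Il17a. The 37 cells with Il17a on ketogenic diet had 231 Trdc UMIs and the 132 without had 292, which is 2293 CPM (2007 to 2608) and 427 CPM (380 to 479), a ratio of 5.36 (4.49 to 6.4). Tcrg-C1 had a ratio of 11.3 (8.25 to 15.6), Trdv4 of 9.63 (5.16 to 18.3) and Tcrg-C2 of 2.71 (1.81 to 3.99). Trgv2 had a ratio of 1.13 (0.342 to 2.94) and Tcrg-C4 of 0.877 (0.422 to 1.65), so neither was shown to differ. By these ratios 4 of the 5 genes were at least 2-fold higher in the cells with Il17a, where 10.3% of all genes tested were at least 2-fold higher and 15.1% at least 2-fold lower. Trdv4 was among the 4, with 27 UMIs with Il17a and 19 without, and reached the minimum of 20 UMIs only through the cells with Il17a. Tcrg-V6, a gamma variable segment next to Tcrg-C1 that is known from Il17a-producing cells of mouse tissues, had 9 UMIs in 8 cells with Il17a and 3 UMIs in 2 cells without it, a ratio of 20.3 (5.08 to 117). Trac had 5 and 90 UMIs, a ratio of 0.377 (0.119 to 0.912), and Trbc2, a beta constant gene, 149 and 626 UMIs, a ratio of 1.61 (1.34 to 1.93).

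The cells with and without Il17a were also compared only among those low in NK receptor genes, a setting chosen after the data were seen. It leaves 33 cells with Il17a and 57 without on ketogenic diet, at median depths of 2127 and 2203 UMIs. Trdc had 209 UMIs with Il17a and 117 without, a ratio of 3.56 (2.82 to 4.5), Tcrg-C1 had 101 and 47, a ratio of 4.28 (3 to 6.19), and Trdv4 had 26 and 8, a ratio of 6.47 (2.85 to 16.5). Tcrg-C2 had a ratio of 1.37 (0.839 to 2.22), so it was not shown to differ within these cells, and Trgv2 had a ratio of 0.586 (0.169 to 1.65). Here 3 of the 5 genes were at least 2-fold higher with Il17a, where 8.37% of all genes tested were at least 2-fold higher and 7.77% at least 2-fold lower. Trdv4 was among the 3, with 26 UMIs with Il17a and 8 without. It reached the minimum UMI count of the comparison only through the cells with Il17a, so nothing is read from the count of 3. The ratios of Trdc, Tcrg-C1 and Trdv4 were thus smaller than in all cells without Cd4 and Cd8, with intervals still above 1.

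Between the diets, receptor cells without Il17a were compared among those without Cd4 and Cd8, 132 on ketogenic diet and 92 on normal diet. Their medians were 3870 and 4639.5 UMIs, and the intervals of the diet ratio included 1 for all 5 genes. Trdc was at 427 CPM on ketogenic diet and 362 CPM on normal diet, a ratio of 1.18 (0.976 to 1.43). Tcrg-C1 had a ratio of 1.21 (0.803 to 1.85), Tcrg-C2 of 1.24 (0.878 to 1.76) and Trgv2 of 1.26 (0.674 to 2.44), and all 3 intervals included 1. For Tcrg-C1 this joined classes that ran opposite ways. Over all cells without Il17a, its ratio was 1.92 (1.08 to 3.56) in the class low in NK receptors. In the class with NK receptors it was 0.514 (0.263 to 0.995). Trdv4 had 19 UMIs in 12 cells on ketogenic diet and 5 in 5 cells on normal diet, a ratio of 2.72 (0.982 to 9.32). It was the 1 of the 5 genes past a 2-fold difference, where 2.15% of all genes tested were at least 2-fold higher on ketogenic diet and 4.19% at least 2-fold lower.

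Genes of the Il17a-type gamma-delta program were described from a list of 25, Il17a included. Of its 24 other genes, 14 had at least 20 UMIs over the 37 cells with Il17a and the 132 without on ketogenic diet, and all 14 were at least 2-fold higher in the cells with Il17a, with a median log2 ratio of 3.11, against 0.02 over all genes tested, of which 10.3% were at least 2-fold higher. Il2ra, 1 of the 14, had 17 UMIs with Il17a and 18 without, so it reached 20 UMIs only with the cells with Il17a counted in. Among cells low in NK receptors 11 of 13 list genes with at least 20 UMIs were at least 2-fold higher, where 8.37% of all genes tested were. Of these, Rora, Blk and Actn2 had 18, 19 and 17 UMIs without Il17a and reached 20 UMIs only through the cells with it. Nothing is read from the count of 11. Among the same cells Il7r had a ratio of 1.30 (0.889 to 1.89) and Il18r1, an interleukin 18 receptor chain, 1.19 (0.533 to 2.57). There Cd163l1 had a ratio of 3.82 (2.53 to 5.85), Blk 3.77 (2.11 to 6.96), Maf 3.90 (2.34 to 6.67) and Rora 2.54 (1.31 to 5.00). Over all 37 cells with Il17a and the 132 without, the ratios of these genes were larger. Cd163l1, a scavenger receptor of these cells, was at 824 CPM with Il17a and 60.0 CPM without, a ratio of 13.7 (9.33 to 20.5). Blk, a kinase of the Src family, had a ratio of 12.3 (7.02 to 22), Maf, a transcription factor, 11.2 (7 to 18), Rora, a nuclear receptor, 6.08 (3.44 to 10.7), and Il7r, the interleukin 7 receptor, 3.33 (2.37 to 4.64). Of the genes below 20 UMIs, Sox13, a transcription factor, had 12 UMIs with Il17a and 3 without, Zbtb16, another, 14 and 4, and Il22, another cytokine, 14 UMIs in 2 cells and 0. Of 7 activation genes, of which Icos and Il2ra are also in the Il17a-type list, 6 were at least 2-fold higher and Tnfrsf9 was at least 2-fold lower. Il2ra, with fewer than 20 UMIs without Il17a, was among the 6.

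Genes of the interferon-gamma-type program ran the other way in part. Of 15 genes, all measured and 4 of them (Il2rb, Klrd1, Klrk1 and Nkg7) also part of the T and NK lineage gate, 10 were at least 2-fold lower in the cells with Il17a and 0 at least 2-fold higher, with a median log2 ratio of -1.54, where 15.1% of all genes tested were at least 2-fold lower. Of these 10, Tbx21, Eomes and Cd160 had no UMI in the 37 cells with Il17a and reached the minimum of 20 UMIs only through the cells without it. With those genes set at 3 counts over the 37 cells, or 29.8 CPM, 9 of 15 were at least 2-fold lower, with a median of -1.38. By the upper ends of their exact intervals, 0.802 for Tbx21, 0.519 for Eomes and 0.255 for Cd160, only Cd160 of these 3 was shown to be at least 2-fold lower. Xcl1, also among the 10, had 11 UMIs with Il17a and 1310 without. It too reached the minimum only through the cells without Il17a, so nothing is read from the counts of 10 and 9. Among cells low in NK receptors 8 of 10 genes with at least 20 UMIs were at least 2-fold lower, where 7.77% of all genes tested were. Of these 8, all but Ccl5 reached the minimum of 20 UMIs only through the cells without Il17a, so nothing is read from that count. Gzmb had a ratio of 0.766 (0.518 to 1.11) among cells low in NK receptors. Xcl1, a chemokine, was at 109 CPM with Il17a and 1918 CPM without, a ratio of 0.0569 (0.0283 to 0.102). Il2rb, a receptor chain for interleukin 2 and 15, had a ratio of 0.366 (0.227 to 0.561), and Gzmb, a granzyme, 0.319 (0.257 to 0.391). Ifng had 7 UMIs in 3 cells with Il17a and 58 in 37 without, a ratio of 0.818 (0.315 to 1.8), and was not shown to differ. All 4 CD3 genes were higher with Il17a, from 1.46 (1.20 to 1.78) for Cd3d to 5.12 (3.25 to 8.01) for Cd247. Of these, Cd3d, Cd3e and Cd3g are part of the CD3 gate and the T and NK lineage gate. The cells with Il17a were also shallower, with a median of 2204 UMIs against 3870. Among cells low in NK receptors Cd3d had a ratio of 1.09 (0.851 to 1.38), while the intervals of Cd3e, Cd3g and Cd247 stayed above 1. In all 37 and 132 cells, Ncr1, an NK receptor, had 0 UMIs with Il17a and 154 without. Of 8 genes listed for type 3 innate lymphoid cells, which also make Il17a but carry no CD3, 4 could be compared, of which Il7r and Rora were at least 2-fold higher and Ncr1 at least 2-fold lower.

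**Figure D5:**
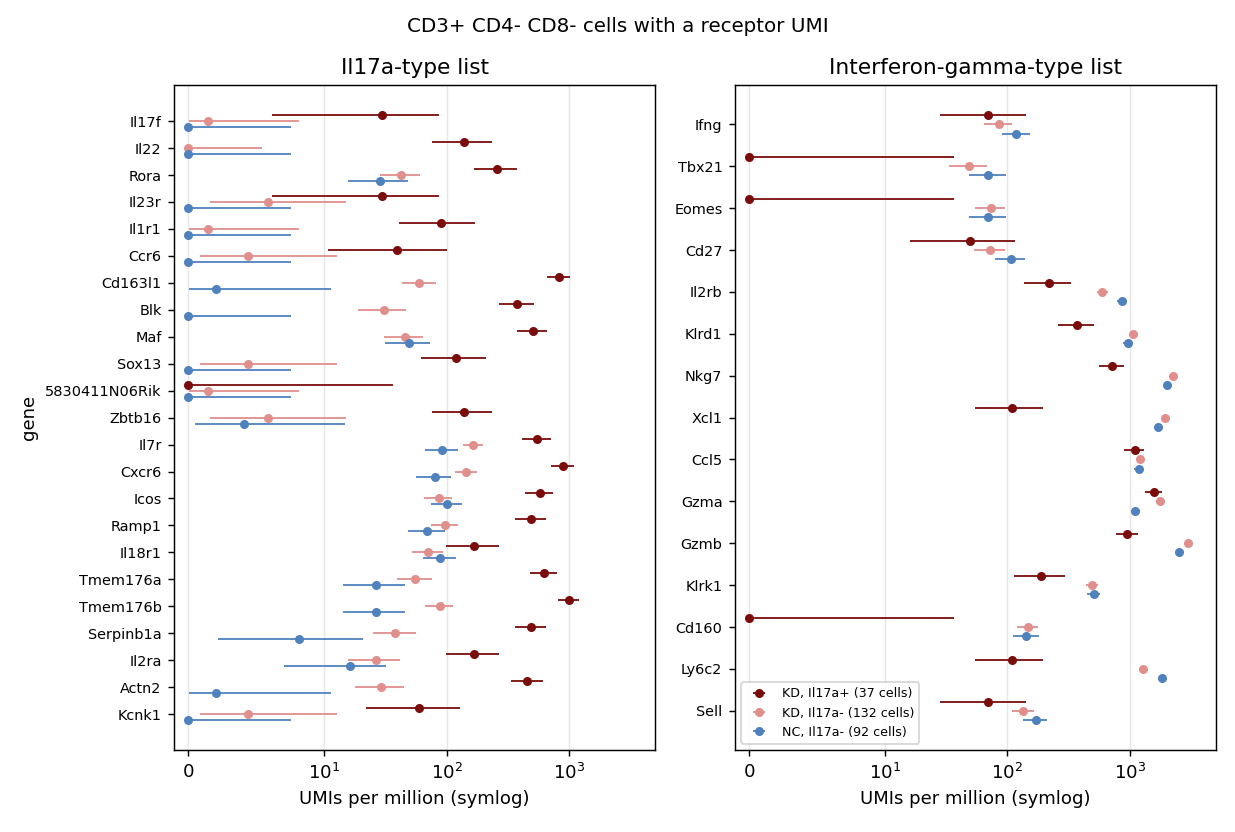
Levels in CPM (horizontal axis, linear below 10 and logarithmic above) of reported genes of the Il17a-type list other than Il17a (left) and the interferon-gamma-type list (right) in receptor cells without Cd4 and Cd8, for 37 cells with Il17a on ketogenic diet, 132 without it on ketogenic diet and 92 without it on normal diet, with exact Poisson intervals. The cells with Il17a stand to the right of both other groups in most of the left panel, and the groups without Il17a lie close together in the right panel.

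Across the diets, the cells without Il17a differed in part of the Il17a-type list. In the 132 such cells on ketogenic diet and 92 on normal diet, 6 of 14 measured genes were at least 2-fold higher on ketogenic diet, namely Cd163l1, Blk, Tmem176a, Tmem176b, Serpinb1a and Actn2, and 0 were at least 2-fold lower, where 2.15% of all genes tested were at least 2-fold higher and 4.19% at least 2-fold lower. Cd163l1 had 41 UMIs in 18 cells on ketogenic diet and 1 UMI in 1 cell on normal diet, Blk had 21 and 0 UMIs, Actn2 20 and 1, and Serpinb1a 26 and 4. Tmem176a had 38 and 13. All 6 genes, Tmem176b included, had fewer than 20 UMIs on normal diet. They reached the minimum of 20 UMIs only through the ketogenic diet cells, and nothing is read from the count of 6. Tmem176b, a membrane protein, had 60 and 13 UMIs on ketogenic and normal diet, a ratio of 3.3 (1.79 to 6.56). Of the 15 interferon-gamma-type genes, 0 differed by 2-fold in either direction, and the same held for the 4 CD3 genes and the 3 alpha-beta receptor genes. Smaller differences could still have intervals that excluded 1. Lower on ketogenic diet were Trac, with a ratio of 0.685 (0.507 to 0.925), and Il2rb, 0.687 (0.598 to 0.789). Higher in pooled level were Nkg7, 1.12 (1.03 to 1.21), and Xcl1, 1.12 (1.03 to 1.23). For both, the share of cells with a UMI ran the other way. Nkg7 was found in 85.6% (78.4 to 91.1) of cells on ketogenic diet and 96.7% (90.8 to 99.3) on normal diet. Xcl1 was found in 67.4% (58.7 to 75.3) and 71.7% (61.4 to 80.6). Neither gene is thus shown to be higher per cell. Of the 7 activation genes, Pdcd1, an inhibitory receptor, was at least 2-fold higher, with 31 UMIs on ketogenic diet and 7 on normal diet. Pdcd1 also reached the minimum of 20 UMIs only through the ketogenic diet cells. Of the 8 genes listed for type 3 innate lymphoid cells, 5 could be compared and 0 differed by 2-fold.

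Variable and constant segments were found together in CD3-gated T cells in particular combinations, and Trgv2 was found mostly with Tcrg-C2. On ketogenic diet 45 of 66 cells with Trgv2 held Tcrg-C2, 68.2% (55.6 to 79.1), against 13.2% of the other CD3-gated cells. On normal diet 28 of 41 did, 68.3% (51.9 to 81.9), against 11.7%. Tcrg-C1 was found in 19.7% (10.9 to 31.3) of cells with Trgv2 on ketogenic diet and 29.3% (16.1 to 45.5) on normal diet. Tcrg-C4 was found in 37.9% (26.2 to 50.7) of cells with Trgv2 on ketogenic diet, against 8.87% of the other CD3-gated cells. On normal diet it was found in 39.0% (24.2 to 55.5), against 8.44%. Trdv4 went with Tcrg-C1 on ketogenic diet, where 33 of 47 cells with Trdv4 held it, 70.2% (55.1 to 82.7), against 2 of 10 on normal diet, a share with an interval of 2.52 to 55.6%. Of the 12 cells with Tcrg-V6 on ketogenic diet, 11 held Tcrg-C1 and 7 held Trdv4. Of the cells with Tcrg-V1, which lies next to Tcrg-C4, 6 of 11 on ketogenic diet and 3 of 4 on normal diet held Tcrg-C4. Il17a was found in 41 of 95 CD3-gated cells with Tcrg-C1 on ketogenic diet, 43.2% (33.0 to 53.7), and in 2 of 39 on normal diet, 5.13% (0.627 to 17.3). It was found in 19 of 148 cells with Tcrg-C2 on ketogenic diet, 12.8% (7.91 to 19.3), and in 0 of 92 on normal diet, 0% (0 to 3.93).

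Of the remaining genes of the gamma and delta loci, Tcrg-C4 was counted most. Over all cell barcodes it had 448 UMIs on ketogenic diet and 352 on normal diet, a ratio of 1.14 (0.990 to 1.31). Tcrg-V6 had 22 and 2 UMIs, Tcrg-V1 27 and 12, and Trdv2-2 33 and 20 on ketogenic and normal diet. The other variable segments had at most 10 UMIs in either library, Tcrg-C3 had 1 and 0 UMIs, and the joining and diversity segments listed in the files had 0 UMIs in both.

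Genes with the most similar pattern over 28 class profiles, from the classes of at least 30 cells in each library, were named by the Pearson correlation of log2(CPM + 20), over 12771 genes with at least 50 UMIs. The profiles share libraries and depth, and the correlations are a description. For Trdc the closest was Cxcr3, a chemokine receptor, with r of 0.926, followed by Lef1, a transcription factor, Klra1, an NK receptor, Tesc and Il27ra. For Tcrg-C1 the closest were Cpm, Ncmap, Atcayos, Bik and Dtx1, with r from 0.899 to 0.924. For Tcrg-C2 they were Ehd3, Atcayos, Gm28112, Tnp2 and Camk4, from 0.906 to 0.944, and for Trgv2 they were Atcayos, Gm28112, Tesc, Camk4 and Trat1, from 0.880 to 0.931. For Trdv4 they were 2310047D07Rik, 2210011C24Rik, Aqp3, Dmrta1 and Krt83, from 0.815 to 0.889. Among the 5 genes themselves, Tcrg-C2 and Trgv2 were the most alike, with r of 0.951, and Tcrg-C2 and Trdv4 the least, with r of 0.473.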

How the data were processed

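The deposited files hold UMI counts for every listed barcode, 813678 on ketogenic and 827272 on normal diet. Cell Ranger 4 appears per the file headers, Cell Ranger 6.0.0, Seurat 3.2.0 and build GRCm38 (mm10) per the submitters' processing notes. Cell barcodes held 39758619 and 35623303 UMIs. Each of 4 lineages needed a minimum summed marker CPM (400 to 1500) and at least 3 UMIs from 2 genes. CD3 and NK gates needed 2 UMIs. Members, gates and lists were chosen with earlier results of these data known. Named genes were the members, other locus genes, list genes and the 5 genes most like each member. 1 gene of the lists is not reported here. Symbols starting with Tcrg-V were added to the locus rule after the files were seen. Genes with at least 20 UMIs over both groups were compared as pooled CPM, and a 2-fold ratio counted as a call. Ratios, intervals, thinning and likeness were tested on simulated data. Python 3.11.15, numpy 2.4.6, scipy 1.17.1 and pandas 2.3.3 were used, and sequences came from GENCODE transcripts. Alternatives changed depth, mitochondrial share, mixed barcodes, free RNA, cell weighting and thresholds.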

Additional observations from a re-analysis of the deposited data

How the results depend on the processing

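No paired analysis was possible because each diet is 1 library, and no replicate could be left out for the same reason. No diet ratio over all cell barcodes changed direction under the alternatives run. Of the alternatives, 27 ratios over all cell barcodes stayed near the reported value and 8 moved. Thinning to 1000 UMIs gave diet ratios of 3.33 for Trdc, 5.07 for Tcrg-C1 and 1.75 for Tcrg-C2. The mean of per-cell CPM gave 2.46 for Trdc and 4.63 for Tcrg-C1, and leaving out mixed barcodes gave 1.43 for Trgv2. Leaving out barcodes with Il17a, chosen after seeing the data, gave 1.41 for Trdc and 1.58 for Tcrg-C1. Within CD3-gated cells without Cd4, Cd8 and NK receptors the same setting turned the Trdc ratio to 0.965, below 1, and gave 1.92 for Tcrg-C1, and in CD8 T cells it gave 1.14 for Trdc. Keeping mixed barcodes put 75.6% of Trdc UMIs in CD3-gated cells on ketogenic diet and 60.2% on normal diet, and 47.0% of Trdv4 on ketogenic diet. A gate of 1 Cd3 UMI gave 65.9% and 51.1% for Trdc on ketogenic and normal diet, and 39.6% for Trdv4 on ketogenic diet. Thinning gave 68.4% for Trdc on ketogenic diet, 100% for Trgv2 in both libraries and 85.7% for Tcrg-C1 on normal diet. Receptor cells with Il17a numbered 86 on ketogenic diet with mixed barcodes kept. On normal diet they numbered 0 when thinned, 1 with 2 Il17a UMIs and 0 when Trdc was required. Receptor cells without Il17a numbered 600 on ketogenic and 442 on normal diet with mixed barcodes kept, 124 and 62 when thinned, 147 and 103 with 2 receptor UMIs, and 106 and 72 when Trdc was required. With at least 100 UMIs per gene, 63 genes were 2-fold higher and 238 were 2-fold lower on ketogenic diet, against 252 and 470 with at least 20. The causes of these shifts were not tested.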
